A study of Mus musculus with 15 samples.

Results

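The 9 genes described here make, move, degrade or sense prostaglandins: Ptgs1, Ptgs2, Ptges, Ptgds, Ptgis, Hpgds, Slco2a1, Hpgd and Ptger4. They were found by matching the Entrez identifiers of the deposited table to gene symbols, and all 9 were among the 17892 lines with values. All 9 also passed the filter on low counts and were among the 14853 genes tested. RNA was sequenced from cells of mice that had been isolated for PDGFRβ, a growth factor receptor that marks pericytes and is also found on smooth muscle of vessels and on fibroblasts. Wild-type mice (WT) and mice lacking microRNA-210 (KO) had either a sham procedure or a hypoxic-ischaemic brain injury (HI) in the newborn period. Cells of the HI groups were collected 24 h after the injury, while the labels give no time for the sham groups. The groups were WT sham with 3 libraries (numbers 1 to 3), KO sham with 4 (1, 3, 4 and 6), WT HI with 4 (1, 2, 4 and 5) and KO HI with 4 (1 to 4). The labels do not state the age in days, the strain, the sex, how the knockout was made, or whether a library came from 1 animal or from a pool. Adjusted p-values below therefore set group differences against the spread between libraries. That spread may be partly technical, and the libraries may not be independent animals. MicroRNA-210 itself was not analysed here, so the genotype labels were not checked through the targeted gene. Choroid plexus transcripts varied widely between libraries of every group. Some libraries stood apart within their groups: WT HI 2 in microglia markers, KO HI 4 in fibroblast and meningeal markers, and KO sham 1 and 3, KO HI 2 and 3 and WT sham 2 in neuron markers. Where a call turned on leaving out WT HI 2, KO HI 4 or the last 5 libraries together, the value without them is given.

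Prostaglandins are lipid mediators made from arachidonic acid that phospholipases release from membranes. The cyclooxygenases encoded by Ptgs1 and Ptgs2 turn arachidonic acid into the unstable intermediate prostaglandin H2, and terminal synthases turn that into prostaglandin E2, prostaglandin D2 or prostacyclin. Ptgs1 is usually expressed at a steady level, and Ptgs2 is the inducible isoform that rises after injury and inflammation. The transporter encoded by Slco2a1 carries prostaglandins across the membrane into cells, where the dehydrogenase encoded by Hpgd inactivates them. In brain, cyclooxygenase and prostaglandin E synthase of the vessel wall are known for carrying inflammatory signals into the tissue. Microglia are known to express Ptgs1 and Hpgds.

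The proximal promoters of the 6 genes whose levels differed by genotype after HI are shown first, 3 that were higher in KO and 3 that were lower. Each is the 250 bases before the transcription start in RefSeq (GRCm38.p6, whereas the authors' build was mm39), written 5′ to 3′ on the strand of the gene, with motif matches in capitals.
The 3 genes higher in KO were as follows.
Ptgs1 (chr2:36230176-36230425, plus strand): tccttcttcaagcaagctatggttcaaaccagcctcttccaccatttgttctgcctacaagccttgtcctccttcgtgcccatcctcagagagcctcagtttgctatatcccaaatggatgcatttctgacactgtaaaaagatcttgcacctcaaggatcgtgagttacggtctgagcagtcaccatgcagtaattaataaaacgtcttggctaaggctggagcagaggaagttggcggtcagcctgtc
Hpgds (chr6:65144731-65144980, minus strand): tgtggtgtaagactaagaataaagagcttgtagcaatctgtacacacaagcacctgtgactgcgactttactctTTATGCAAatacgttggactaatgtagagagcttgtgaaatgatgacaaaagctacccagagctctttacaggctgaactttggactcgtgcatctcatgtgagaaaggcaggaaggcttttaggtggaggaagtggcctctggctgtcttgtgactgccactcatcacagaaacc
Hpgd (chr8:56294302-56294551, plus strand): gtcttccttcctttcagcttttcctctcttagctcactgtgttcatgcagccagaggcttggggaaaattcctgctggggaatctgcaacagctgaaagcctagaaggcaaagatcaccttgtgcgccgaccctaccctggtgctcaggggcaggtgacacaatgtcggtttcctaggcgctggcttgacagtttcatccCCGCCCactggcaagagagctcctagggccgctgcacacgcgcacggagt
The 3 genes lower in KO were as follows.
Ptgs2 (chr1:150099781-150100030, plus strand): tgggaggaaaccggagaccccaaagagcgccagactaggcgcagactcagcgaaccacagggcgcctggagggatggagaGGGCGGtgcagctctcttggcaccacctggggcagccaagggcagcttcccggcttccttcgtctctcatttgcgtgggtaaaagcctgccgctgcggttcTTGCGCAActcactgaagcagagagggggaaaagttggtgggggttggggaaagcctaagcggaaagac
Ptges (chr2:30903298-30903547, minus strand): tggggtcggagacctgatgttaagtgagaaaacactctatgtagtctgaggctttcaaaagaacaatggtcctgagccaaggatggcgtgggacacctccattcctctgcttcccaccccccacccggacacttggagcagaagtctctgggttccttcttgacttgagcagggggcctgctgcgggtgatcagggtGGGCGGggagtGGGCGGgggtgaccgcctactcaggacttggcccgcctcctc
Slco2a1 (chr9:103008237-103008486, plus strand): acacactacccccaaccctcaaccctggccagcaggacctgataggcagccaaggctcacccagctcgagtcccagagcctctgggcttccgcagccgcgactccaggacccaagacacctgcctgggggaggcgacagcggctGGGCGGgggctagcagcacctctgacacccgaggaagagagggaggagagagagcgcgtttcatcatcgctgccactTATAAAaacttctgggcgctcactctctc
The motifs searched on both strands were the TATA box in the form TATAAA, the CCAAT box by these letters, the core of a cyclic AMP response element in the form TGACG, the E-box in the form CACGTG, the AP-1 site in the form TGANTCA and the GC box in the form GGGCGG. The consensus motifs of NF-kB and C/EBP were searched too, and the AP-1 and cyclic AMP motifs can overlap each other. Ptgs2 held a C/EBP match, TTGCGCAA, 69 to 62 bases before its start, a motif found in 3.39% of 32851 promoters of the same length. Hpgds held another C/EBP match, TTATGCAA, 176 to 169 bases before its start. Slco2a1 held TATAAA 29 to 24 bases before its start, as did 12.4% of promoters anywhere in the window. GC boxes, found in 32.7% of promoters, lay in Ptgs2, Ptges (2 copies), Slco2a1 and Hpgd, so they occurred on both sides of the genotype difference. The Ptgs1 window held none of the 8 motifs and had a GC content of 48%, against 61.6% for Ptgs2. A match describes the letters and is no evidence that a factor binds there.

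The microRNA missing in the KO mice is shown for its seed, bases 2 to 8, in capitals.
miR-210-3p: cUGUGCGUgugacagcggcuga
A site that pairs with this seed reads ACGCACA in the target. It was absent from the longest annotated 3′ UTR of all 9 genes (GENCODE M21, GRCm38), which ran from 162 bases in Ptgds to 4572 bases in Slco2a1. Of 21082 genes with an annotated 3′ UTR, 642 (3.05%) held the site, so most genes lack it.

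Ptgs2, the inducible cyclooxygenase, rose after HI in both genotypes and was lower in KO than in WT after HI. Its level in CPM (reads scaled to a common library total) was 23.7, 18.9 and 25.8 for the WT sham group and 3.37, 6.92, 7.76 and 8.01 for the KO sham group, in order of library number. After HI it was 170.4, 127, 146 and 154 for WT and 50.5, 25.1, 30.1 and 70.3 for KO. Every WT HI library thus stood above every other library, and every KO sham library stood below every WT sham library. KO HI libraries overlapped WT sham libraries only at the level of KO HI 2, at 25.1 against 25.8.

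**Figure D1:**
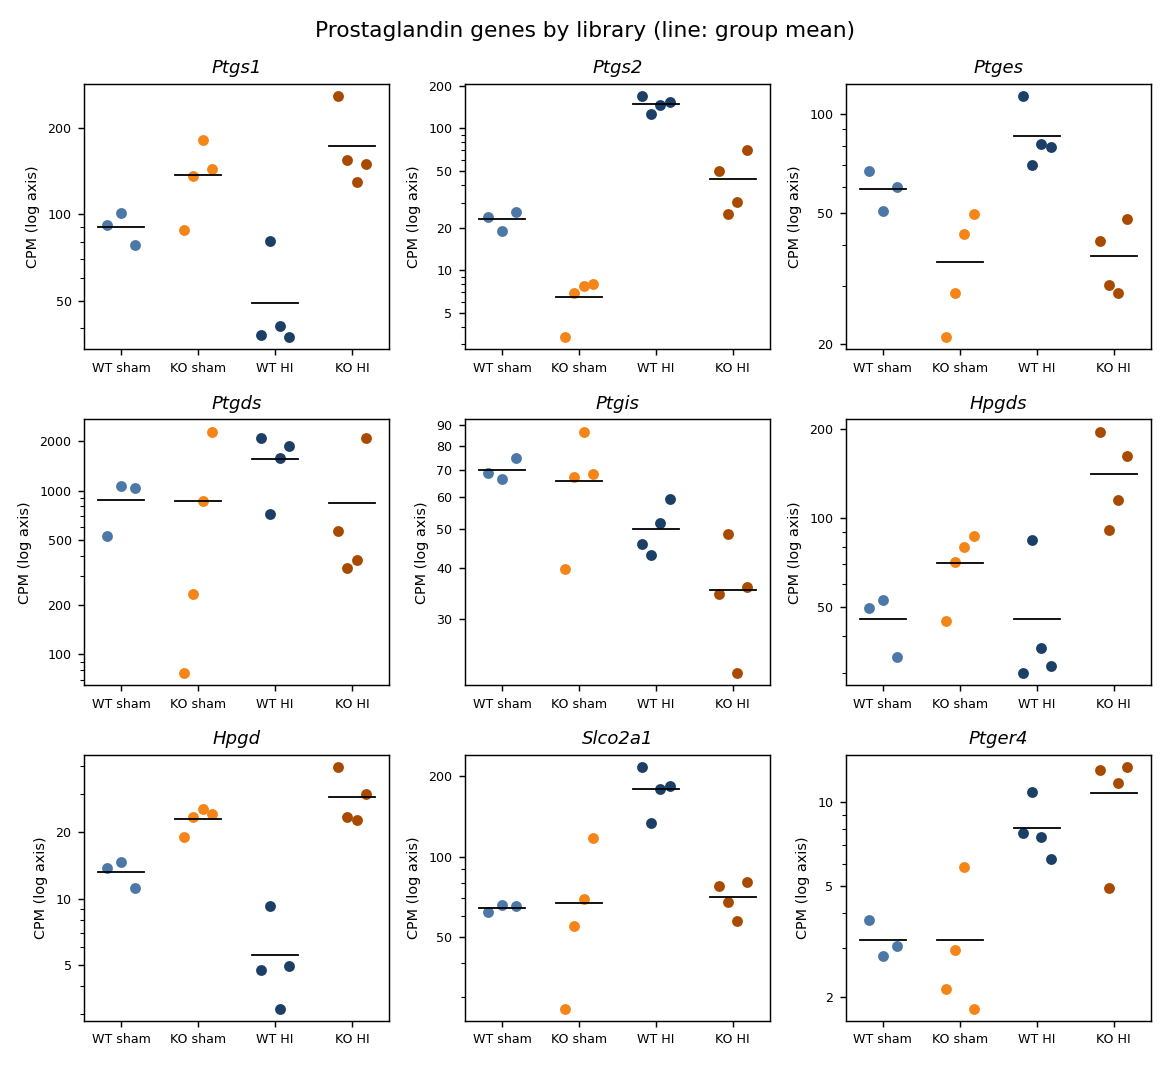
Level of each of the 9 genes by library, in CPM on a log axis, for WT sham, KO sham, WT HI and KO HI; points are libraries in order of replicate number and lines are group means. Ptgs2 and Slco2a1 are highest in the 4 WT HI libraries, at 127 to 170.4 and 134 to 216 CPM, while Ptgs1, Hpgds and Hpgd have their highest mean in KO HI.

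The HI response of Ptgs2 was a log2 fold change of 2.71 ± 0.36 (SE) in WT (6.53-fold, edgeR adjusted p = 0.00288) and 2.75 ± 0.33 in KO (6.73-fold, adjusted p = 0.00102). These responses differed by 0.04 on the log2 scale, with an approximate 95% interval from -0.83 to 0.92 (unadjusted p = 0.925). This interval leaves room for responses that differ by nearly 1 log2 unit in either direction. The genotype difference was -1.80 ± 0.34 in sham, where it had rank 6 by p among all 14853 genes but missed the threshold (unadjusted p = 1.3e-04, adjusted p = 0.273). After HI it was -1.76 ± 0.31, or 3.39-fold lower in KO (adjusted p = 0.00695). With DESeq2 the sham difference was called (-1.81, adjusted p = 2.56e-04), and so it was without the 5 libraries highest in neuron markers (-1.66, adjusted p = 0.0394). The HI response in KO lost its call when only the KO groups were fitted (adjusted p = 0.053). With library numbers as a replicate block, HI in WT and genotype after HI lost their calls (adjusted p = 0.0595 and 0.0556).

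Ptgs1, the constitutive cyclooxygenase, was higher in KO than in WT after HI. The CPM of Ptgs1 was 91.7, 101 and 77.9 for WT sham and 88.0, 136, 181 and 144 for KO sham, and 37.8, 80.3, 40.8 and 37.3 for WT HI and 258, 155, 129 and 149 for KO HI, each in order of library number. KO HI libraries all stood above WT HI libraries, and 3 of 4 WT HI libraries stood below every other library while WT HI 2 lay within the WT sham range. After HI, Ptgs1 was 3.52-fold higher in KO (log2 fold change 1.82 ± 0.30, adjusted p = 0.00583). That call was lost with library numbers as a replicate block (adjusted p = 0.0749). HI against sham gave -0.88 ± 0.31 in WT (adjusted p = 0.217) and 0.33 ± 0.29 in KO (adjusted p = 0.580), neither past the threshold. Without WT HI 2 the WT value was -1.22 ± 0.27 (adjusted p = 0.0529).

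The ratio of counts of the 2 cyclooxygenases inside each library needs no scaling between libraries. It set WT HI above and KO sham below all other libraries, while KO HI and WT sham overlapped. Ptgs2 counts per Ptgs1 count had a median of 0.259 for WT sham (range 0.187 to 0.332), 0.0468 for KO sham (0.0383 to 0.0556), 3.85 for WT HI (1.58 to 4.51) and 0.214 for KO HI (0.162 to 0.472). WT HI libraries were the only ones with more Ptgs2 than Ptgs1 reads. KO HI libraries spanned the WT sham range, and KO sham libraries lay below all others. Ratios of counts between genes also carry the lengths of their transcripts, so comparisons here are between libraries and not between genes. They can also carry the cell makeup of a library, whose part was not tested.

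**Figure D2:**
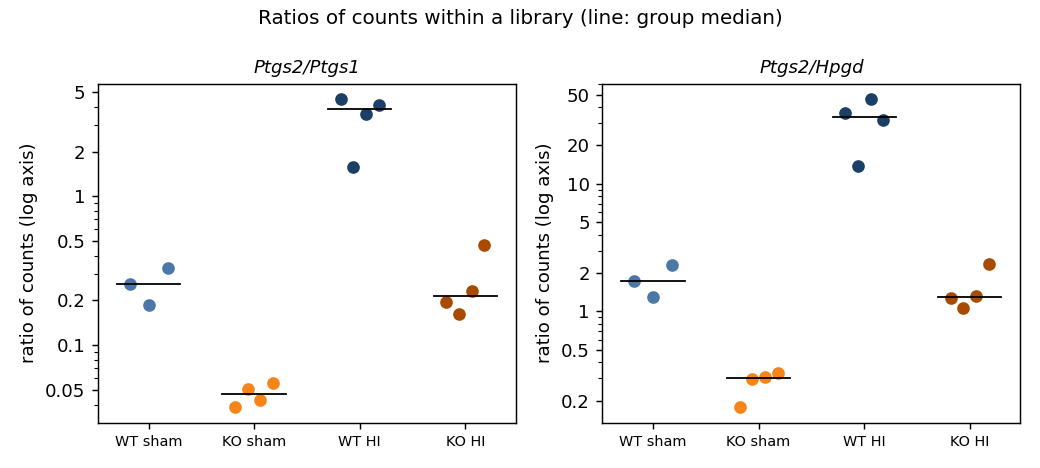
Ratio of Ptgs2 counts to Ptgs1 counts and of Ptgs2 counts to Hpgd counts in each library, on log axes, by group; points are libraries and lines are group medians. Both ratios are highest in the 4 WT HI libraries and lowest in the 4 KO sham libraries, with medians of 3.85 against 0.0468 for Ptgs2 per Ptgs1 and 33.6 against 0.300 for Ptgs2 per Hpgd.

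Among the terminal synthases, Ptges encodes the inducible microsomal enzyme that works with Ptgs2 to make prostaglandin E2. The CPM of Ptges was 67.1, 50.6 and 59.9 for WT sham and 20.9, 28.6, 43.3 and 49.5 for KO sham, and 114, 70.1, 81.0 and 79.3 for WT HI and 41.2, 30.2, 28.6 and 48.0 for KO HI. All 8 KO libraries stood below all 7 WT libraries. After HI the KO level was 2.33-fold lower (log2 fold change -1.22 ± 0.26, adjusted p = 0.0128), a call that 2 of 22 alternatives lost (adjusted p of 0.0521 without WT HI 1 and 0.0655). In sham the difference was -0.73 ± 0.28 (adjusted p = 0.477). WT HI libraries stood above WT sham libraries, but the change of 0.54 ± 0.28 missed the threshold (adjusted p = 0.468), and in KO it was 0.06 ± 0.26 (adjusted p = 0.931).

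Hpgds, the haematopoietic prostaglandin D synthase found in microglia, macrophages and mast cells, was highest in KO HI. The CPM of Hpgds was 49.5, 52.9 and 33.8 for WT sham and 44.8, 71.0, 79.6 and 86.9 for KO sham, and 29.9, 84.3, 36.4 and 31.6 for WT HI and 196, 91.2, 115 and 162 for KO HI. KO HI libraries stood above all 11 others, and WT HI 2 stood far above the other WT HI libraries. The genotype difference after HI was 3.10-fold (log2 fold change 1.63 ± 0.36, adjusted p = 0.0136), a call that 4 of 22 alternatives lost, with adjusted p of 0.0528 to 0.105, among them leaving out WT HI 1, 4 or 5. In KO the HI change was 1.0 ± 0.35 and missed the threshold (adjusted p = 0.106), though not without WT HI 2 (adjusted p = 0.037) or with DESeq2 (adjusted p = 0.0355). In WT it was 0.00 ± 0.38 with WT HI 2 and -0.48 ± 0.30 without it (adjusted p = 0.997 and 0.664).

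Ptgds, the lipocalin-type prostaglandin D synthase that meningeal cells and oligodendrocytes secrete in large amounts, varied far more between libraries of 1 group than between groups. The CPM of Ptgds was 527, 1072 and 1036 for WT sham and 77.0, 235, 864 and 2295 for KO sham, and 2099, 722, 1584 and 1869 for WT HI and 569, 337, 379 and 2099 for KO HI. The 4 KO sham libraries alone covered the whole range of the data. No comparison passed the threshold (adjusted p from 0.475 to 0.993 in the 4 pairwise comparisons), and the standard errors of 0.84 to 0.93 log2 units would hide all but very large changes. Leaving out KO sham 6 turned the HI value in KO from -0.04 to 1.11 ± 0.80.

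Ptgis, the prostacyclin synthase of vessel walls, was lower after HI in KO. The CPM of Ptgis was 68.7, 66.5 and 74.6 for WT sham and 39.9, 67.1, 86.9 and 68.2 for KO sham, and 45.7, 43.0, 51.8 and 59.1 for WT HI and 34.5, 48.5, 22.0 and 35.9 for KO HI. WT HI libraries stood below WT sham libraries, and the KO groups overlapped through KO sham 1 and KO HI 2. The KO fall of 0.90 ± 0.24 on the log2 scale passed the threshold narrowly (1.86-fold lower, adjusted p = 0.0405), and 14 of 22 alternatives lost the call, with adjusted p up to 0.254 (0.0649 without KO HI 4). The WT value was -0.49 ± 0.25 (adjusted p = 0.468), and KO was not shown to differ from WT at either stage (adjusted p = 0.863 in sham and 0.166 after HI). The 2 HI responses differed by -0.41 with an interval from -1.09 to 0.27, so a larger response in KO was not shown.

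Slco2a1, the prostaglandin transporter that brain endothelium expresses, was highest in the WT HI libraries. The CPM of Slco2a1 was 62.1, 66.1 and 65.6 for WT sham and 27.1, 55.0, 69.8 and 117 for KO sham, and 216, 134, 179 and 184 for WT HI and 78, 68.0, 57.5 and 80.2 for KO HI. The 4 WT HI libraries stood above all 11 others. In WT the HI change was 1.46 ± 0.35 and missed the threshold by a small margin (2.76-fold, adjusted p = 0.0552). It passed in 6 of 22 alternatives, among them DESeq2 (adjusted p = 0.00113) and the fit without the 5 libraries highest in neuron markers (adjusted p = 0.0135). In KO it was 0.07 ± 0.32 (adjusted p = 0.924). After HI the level in KO was 2.51-fold lower (log2 fold change -1.33 ± 0.32, adjusted p = 0.0199), a call that 6 of 22 alternatives lost, with adjusted p of 0.0543 to 0.0785.

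Hpgd, the 15-hydroxyprostaglandin dehydrogenase that starts prostaglandin breakdown, showed the smallest p of the 9 genes in the genotype comparison after HI. The CPM of Hpgd was 13.8, 14.6 and 11.2 for WT sham and 19.0, 23.5, 25.4 and 24.2 for KO sham, and 4.74, 9.24, 3.16 and 4.92 for WT HI and 39.4, 23.5, 22.8 and 29.8 for KO HI. All 8 KO libraries stood above all 7 WT libraries, and all 4 WT HI libraries stood below all 3 WT sham libraries. After HI, Hpgd was 5.23-fold higher in KO (log2 fold change 2.39 ± 0.29, adjusted p = 0.00318), rank 5 by p among all genes tested. That call was lost with library numbers as a replicate block (adjusted p = 0.0543). In sham the difference was 0.80 ± 0.30 (adjusted p = 0.477). The WT fall of 1.26 ± 0.29 on the log2 scale lay at the threshold (2.39-fold lower, adjusted p = 0.0499). Of 22 alternatives 14 lost that call, among them leaving out any 1 WT sham library (adjusted p of 0.116 to 0.205), KO HI 4 (0.0579) or the 5 libraries highest in neuron markers (0.0849), whereas without WT HI 2 it was -1.62 ± 0.24 (adjusted p = 0.00595).

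Ptgs2 and Hpgd stand at opposite ends of the pathway, and their ratio of counts also set WT HI and KO sham apart from the other groups. Here too the part of cell makeup was not tested. Ptgs2 counts per Hpgd count had a median of 1.72 for WT sham, 0.300 for KO sham, 33.6 for WT HI and 1.3 for KO HI. WT HI libraries lay at 13.7 to 46.1, above all others, and KO sham libraries lay at 0.177 to 0.331, below all others. KO HI, at 1.07 to 2.36, covered the WT sham range of 1.3 to 2.3.

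Ptger4, the receptor EP4 through which prostaglandin E2 raises cyclic AMP, was the least abundant of the 9 genes, with 29 to 238 counts per library. The CPM of Ptger4 was 3.77, 2.79 and 3.04 for WT sham and 2.12, 2.95, 5.85 and 1.81 for KO sham, and 7.71, 10.9, 7.50 and 6.23 for WT HI and 13.1, 4.89, 11.7 and 13.3 for KO HI. WT HI libraries all stood above WT sham libraries, while KO HI 2 lay below KO sham 4. Ptger4 rose 3.36-fold after HI in KO (log2 fold change 1.75 ± 0.39, adjusted p = 0.0191), a call that 4 of 22 alternatives lost, with adjusted p from 0.0552 to 0.168. In WT the change was 1.33 ± 0.42 (adjusted p = 0.154), and it was called with DESeq2 (adjusted p = 0.0338). The difference between the responses was 0.42, with an interval from -0.67 to 1.51, and KO and WT were not shown to differ after HI (0.41 ± 0.37, adjusted p = 0.458). Its exons overlap those of Gm15937 and Ttc33 on the opposite strand, and the sources used here do not say whether counting used strand. The same holds for Ptgis with 1110018N20Rik, Ptgs1 with Gm43621 and Slco2a1 with n-R5s89.

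Counted over the 9 genes, HI against sham in WT gave 2 calls (Ptgs2 higher, Hpgd lower), where 1.82% of all tested genes were called, 1.38% higher and 0.444% lower. The WT groups did not overlap for 6 of the 9, against 31.7% of all genes. In KO there were 3 calls (Ptgs2 and Ptger4 higher, Ptgis lower), where 7.01% of all genes were called, 4.88% higher and 2.13% lower, and the groups did not overlap for 2 of the 9 (Ptgs2 and Hpgds), against 8.84%. KO against WT gave 0 calls in sham, where edgeR called 0.0135% of all genes, and no overlap for 3 of the 9 (Ptgs2, Ptges and Hpgd), against 10.1%. The same 3 had an unadjusted p under 0.05, against 8.56% of all genes, while DESeq2 called 1 (Ptgs2). After HI, KO against WT gave 6 calls, 3 higher and 3 lower, against 12.4% of all genes called (5.96% higher and 6.46% lower), and the groups did not overlap for the same 6 genes, against 21.4% of all genes. The 9 genes were chosen with results of these libraries known, so these counts describe them and do not test them as a set. The comparisons also share libraries, each group entering 2 pairwise comparisons.

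**Figure D3:**
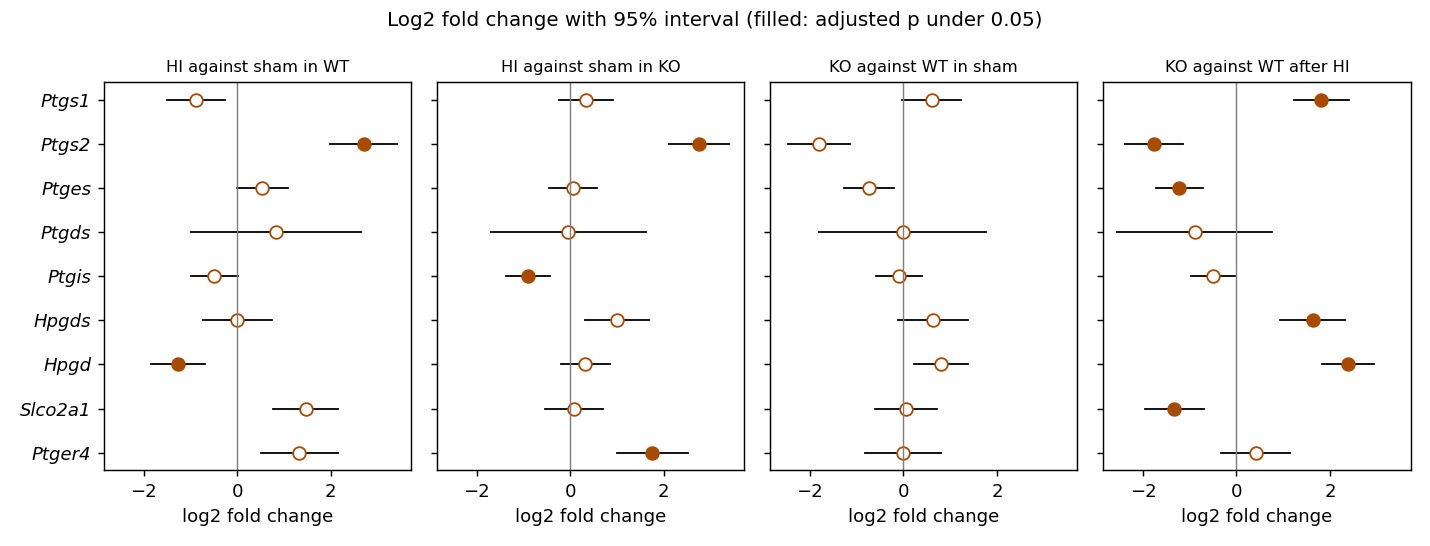
Log2 fold change (x axis) of the 9 genes (rows) in 4 pairwise comparisons, with approximate 95% intervals. The intervals are somewhat narrow: that of Ptgis in KO against WT after HI excludes 0 at an unadjusted edgeR p of 0.0534. Filled points passed an adjusted p of 0.05 in edgeR. In KO against WT after HI, 6 of 9 points are filled, on both sides of 0, and in KO against WT in sham none is, although Ptgs2 lies at -1.80.

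The contrast of the KO response with the WT response to HI was called for none of the 9 genes and for 0 of 14853 genes by edgeR. At an unadjusted p under 0.05, 5.17% of all genes passed, and DESeq2 called 22 genes, none of the 9 among them. Unadjusted p was under 0.05 for Hpgd (1.58 ± 0.40, unadjusted p = 0.00162, adjusted p = 0.834), Slco2a1 (-1.39 ± 0.47, unadjusted p = 0.0109, adjusted p = 0.876) and Ptgs1 (1.21 ± 0.43, unadjusted p = 0.0142, adjusted p = 0.932). A different response by genotype was therefore not shown for any of them, although the calls after HI and the lack of calls in sham might read that way.

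Scaled to the length of the exons (CPM per kilobase), the genes took different places in the groups. Ptgds was the most abundant in every group, at mean levels of 936.5 (WT sham), 925 (KO sham), 1672 (WT HI) and 902 (KO HI) CPM per kilobase. Ptgs1 had rank 2 of 9 in WT sham, KO sham and KO HI at 31.5, 47.9 and 60.3, and rank 6 in WT HI at 17.1. In WT sham its range overlapped that of Ptgis (30.6), the next in order. Ptgs2 had rank 8 in those 3 groups at 5.13, 1.46 and 9.88, and rank 2 in WT HI at 33.5. Slco2a1 (25.0), Ptges (23.6) and Ptgis (21.8) came next in WT HI, and the first 2 of these had libraries above the lowest library of Ptgs2. In KO HI, Hpgds (40.6) had rank 3 and Hpgd (17.2) rank 4. Ptger4 came last in all 4 groups, with mean levels from 0.956 in KO sham to 3.23 in KO HI.

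Markers of several cell types also differed between the groups. Of 12 microglia markers, 12 were called higher in KO than in WT after HI (median log2 fold change 1.78). Of 8 border macrophage markers 4 were called higher (median 1.18), and of 12 endothelial markers 9 were called lower (median -1.02). Of 6 tested mast cell markers 3 were called higher and 4 had positive values (median 1.97). The mean of the mast cell list was low, at 1.36 in WT HI and 1.52 in KO HI on the log2(CPM + 1) scale. Its summed level was nevertheless lower in KO HI (44.8 to 87.4 CPM) than in WT HI (94.8 to 119 CPM). The calls and the sum thus went in opposite directions, and a sum is weighted to the most abundant markers. All 12 pericyte markers had negative values (median -1.11), 11 with an unadjusted p under 0.05 and 4 called, and Pdgfrb itself had mean levels of 860.5 (WT sham), 516 (KO sham), 925 (WT HI) and 356 (KO HI) CPM. In KO against WT after HI, neuron markers had a median of 4.32 and oligodendrocyte lineage markers a median of 4.09. Of these, 10 of 11 and 8 of 10 had an unadjusted edgeR p under 0.05, and 0 were called. All 12 fibroblast and meningeal markers had negative values (median -1.19), 7 with an unadjusted p under 0.05 and 0 called. The microglia markers summed to 2462 to 3498 CPM for WT sham, 3288 to 5827 for KO sham, 1632 to 4439.8 for WT HI and 5773 to 12435 for KO HI. The endothelial markers summed to 8564 to 10045, 3007 to 8725, 8172 to 10771 and 2625 to 5199.8 CPM in the same order. Choroid plexus markers summed to 1426 to 13095, 253 to 31065, 259 to 9508 and 1648 to 57986 CPM in that order, highest in KO HI 2. Their part in the values of the 9 genes was not tested. Neuron markers had means of 2.66 to 5.75 on the log2(CPM + 1) scale in the 5 libraries highest in them, and without these 5 libraries 7 of the 9 genes were called after HI, while the calls over all genes went from 1844 to 3440. The added gene was Ptgis (-0.53 ± 0.15, adjusted p = 0.033). No microglia or endothelial marker was at 0 in any library. In such bulk samples, fewer cells of a type and less RNA per cell cannot be told apart.

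**Figure D4:**
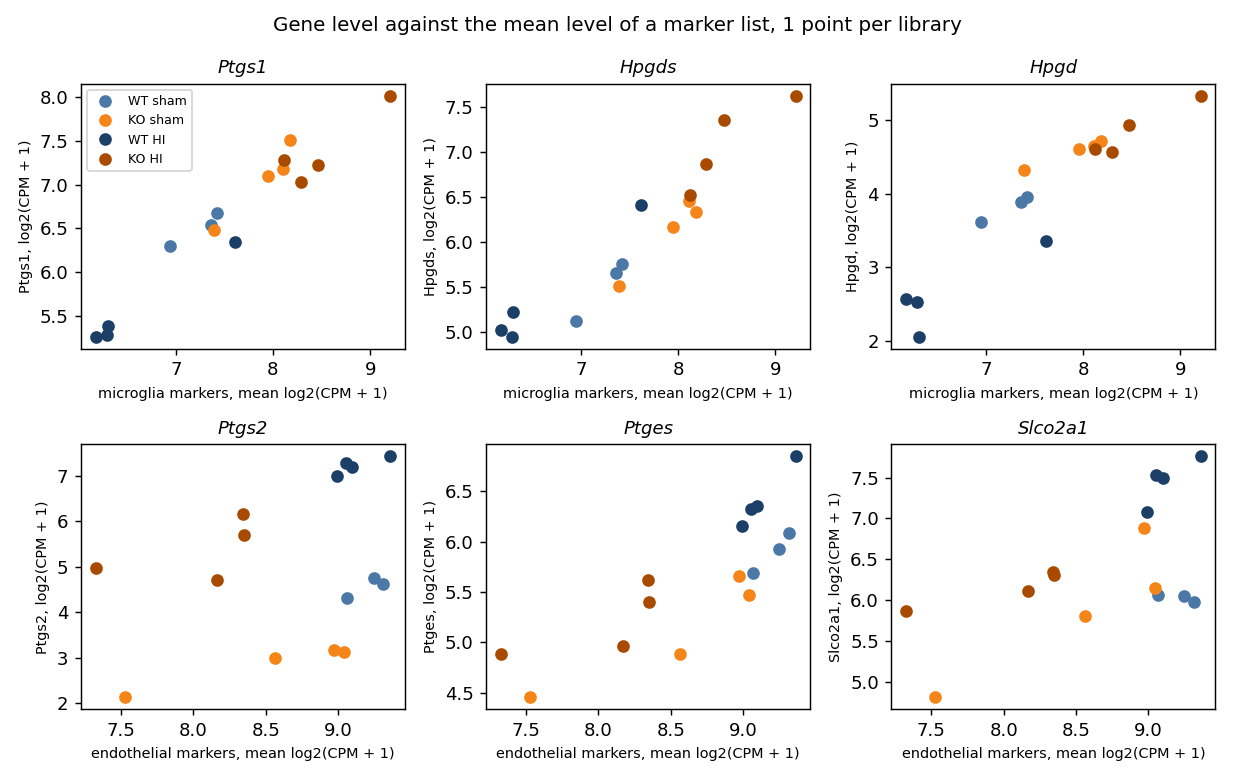
Level of 6 genes (y axis, log2 of CPM plus 1) against the mean level of a marker list in the same library (x axis, mean log2 of CPM plus 1), microglia in the top row and endothelium in the bottom row; each point is a library, coloured by group. Ptgs1, Hpgds and Hpgd follow the microglia markers across groups, with WT HI 2 at 7.61 apart from the other WT HI libraries at 6.18 to 6.31, while Ptgs2 lies higher in WT than in KO and higher after HI than in sham.

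Relative to the microglia list, the WT and KO libraries overlapped for each of the 3 genes that were higher in KO. Ptgs1 minus the mean of that list, in log2 units, was -0.74 ± 0.09 (SD) for WT sham, -0.84 ± 0.12 for KO sham, -1.03 ± 0.16 for WT HI and -1.13 ± 0.20 for KO HI, and WT and KO overlapped at both stages. Hpgds minus the same mean was -1.73 ± 0.08, -1.79 ± 0.10, -1.19 ± 0.11 and -1.43 ± 0.22, again with overlap of the genotypes at both stages. On this scale both HI groups of Hpgds, at -1.59 to -1.08, stood above both sham groups, at -1.88 to -1.65. Hpgd gave -3.42 ± 0.08, -3.33 ± 0.18, -3.97 ± 0.33 and -3.66 ± 0.17 and overlapped between genotypes at both stages. Over all 12 marker lists, every KO library stood above every WT library after HI against 6 lists for Ptgs1, 5 for Hpgds and 7 for Hpgd, and in sham against 3, 3 and 5. Some of these lists, such as the pericyte and endothelial lists, were themselves lower in KO HI, which widens such a gap. The marker list for each gene was chosen after its values were seen. The part of cell composition in these differences was not tested.

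Relative to the endothelial list, Ptgs2 still stood lower in every KO library than in every WT library of the same stage, while Ptges overlapped. Ptgs2 minus the endothelial mean was -4.64 ± 0.13 in WT sham and -5.67 ± 0.23 in KO sham, and -1.90 ± 0.09 in WT HI and -2.67 ± 0.56 in KO HI, without overlap at either stage. Ptges minus the endothelial mean was -3.31 ± 0.08 in WT sham, -3.41 ± 0.27 in KO sham, -2.71 ± 0.14 in WT HI and -2.83 ± 0.32 in KO HI, with overlap of the genotypes. For Slco2a1 the values were -3.17 ± 0.17 in WT sham, -2.61 ± 0.36 in KO sham, -1.66 ± 0.17 in WT HI and -1.89 ± 0.29 in KO HI. On this scale KO sham stood above WT sham for Slco2a1, and both HI groups stood above both sham groups. The KO groups were barely apart, with the lowest KO HI library at -2.06 and the highest KO sham library at -2.08, and the HI change in KO did not pass the test in CPM. After HI the genotypes overlapped on this scale, with WT HI at -1.91 to -1.52 and KO HI at -2.06 to -1.46. Over all 12 marker lists, Ptgs2 was lower in every KO library than in every WT library against 8 lists in sham and 8 after HI. Ptges was so against 2 lists in sham and 6 after HI, and Slco2a1 against 0 and 6. Some of these lists, such as the microglia list, were themselves higher in KO HI, which widens such a gap. After HI, Ptgs2 stayed apart relative to the pericyte list (WT HI -1.12 to -0.94, KO HI -1.98 to -1.22). It overlapped relative to the fibroblast and meningeal list (-1.23 to -0.51 and -1.94 to -1.04) and the smooth muscle list (1.02 to 1.81 and -0.53 to 1.08).

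Ptgis and Ptgds were set against mural and fibroblast lists in the same way. Ptgis minus the mean of the smooth muscle markers was 0.09 ± 0.10 in WT sham, 0.03 ± 0.39 in KO sham, -0.17 ± 0.31 in WT HI and 0.16 ± 0.37 in KO HI, so that no group stood apart, while all 10 smooth muscle markers had negative values for HI in KO (median -1.05), all 10 with an unadjusted p under 0.05 and 3 called. Ptgds minus the mean of the fibroblast and meningeal markers was 1.78 ± 0.50, 1.86 ± 1.51, 2.35 ± 0.35 and 2.47 ± 0.37 in the same order. On that scale KO HI spanned 2.07 to 2.94 log2 units and KO sham 0.35 to 3.83. Ptger4 minus the mean of the neutrophil and monocyte markers was 1.10 ± 0.15, 1.06 ± 0.43, 1.71 ± 0.23 and 1.76 ± 0.67, and 7 of 8 tested markers of that list had positive values for HI in KO, 5 with an unadjusted p under 0.05 and 3 called. That list was low, with its 10 genes together at 7.09 to 72.2 CPM per library. The part of those cells in the Ptger4 change was not tested.

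Within the groups, after each group mean was subtracted, the genes fell into 2 blocks over the 15 libraries. Ptgs1, Hpgds and Hpgd varied together, with Pearson r of 0.83 to 0.88 between them. Ptgs2, Ptges, Slco2a1 and Ptgds formed the second block, with r of 0.715 to 0.906, highest between Slco2a1 and Ptgds. Between the blocks r ran from 0.07 to 0.41. These values describe the libraries, which share cell makeup and scaling, and no test was made of them.

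**Figure D5:**
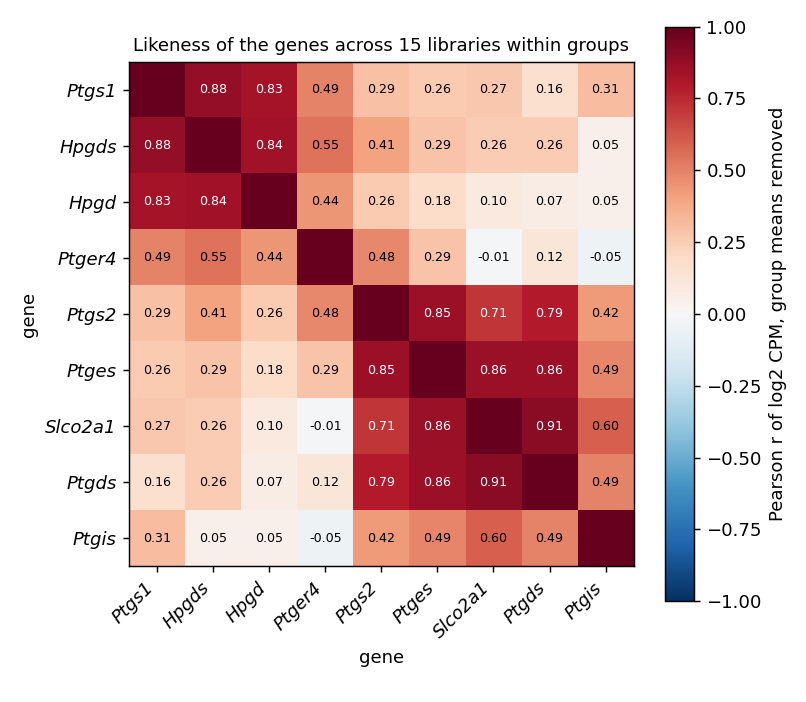
Pearson r of log2 CPM between each pair of the 9 genes over 15 libraries after group means were removed, as a heat map with the value in each cell. Ptgs1, Hpgds and Hpgd form one block with r of 0.83 or more, and Ptgs2, Ptges, Slco2a1 and Ptgds another with r of 0.715 or more.

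The genes most like each of the 9 over all 15 libraries, out of 10505 tested genes with a mean of at least 10 CPM, are given with r and, after it, r within groups. Ptgs1 was most like Csf1r (0.991 and 0.973), the receptor for the growth factor of microglia and macrophages. Hpgds was most like Tbxas1 (0.993 and 0.979), the thromboxane synthase. Hpgd was most like Siglece (0.972 and 0.910) and Cd33 (0.971 and 0.902), sialic acid receptors of myeloid cells. Ptgs2 was most like Ifitm1 (0.969 and 0.939), an interferon-induced membrane protein, and Ptges like Rflna (0.981 and 0.960). Slco2a1 was most like Asap3 (0.953 and 0.899), with Gpr182, a receptor of endothelium, next (0.949 and 0.971). Ptgis was most like Bcam (0.968 and 0.974), Ptgds like Serpind1 (0.988 and 0.986) and Ptger4 like Slfn2 (0.965 and 0.912). The values over all libraries also carry the differences between groups.

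Of 12 tested genes that supply the pathway with arachidonic acid, 1 rose after HI in each genotype (8.33% of the list, where 1.82% of all genes were called in WT and 7.01% in KO), and it was the same gene, Pla2g4a, the cytosolic phospholipase A2 that supplies cyclooxygenases. Its mean was 25.2 ± 1.07 (SD) CPM in WT sham, 23.3 ± 3.71 in KO sham, 46.6 ± 5.98 in WT HI and 49.9 ± 14.4 in KO HI. The HI change was 0.88 ± 0.21 in WT (adjusted p = 0.0495) and 1.10 ± 0.19 in KO (adjusted p = 0.00677). In KO against WT after HI, 3 of the 12 (25%, beside 12.4% of all genes) were called: Pla2g3 (3.0 ± 0.80, adjusted p = 0.0289) and the lysosomal Pla2g15 (1.07 ± 0.23, adjusted p = 0.0136) were higher and Pla2g6 (-0.40 ± 0.12, adjusted p = 0.0452) was lower. Pla2g3 was at most 10.2 CPM in any library. The median of the 12 in that comparison was 0.37, beside 0.06 over all genes.

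Of 9 other prostanoid synthases, 4 (44.4%, beside 12.4% of all genes) were called in KO against WT after HI. Tbxas1, which makes thromboxane and is known from platelets and myeloid cells, was higher (27.4 ± 14.4 CPM in WT HI and 83.3 ± 29.5 in KO HI, log2 fold change 1.61 ± 0.34, adjusted p = 0.0128). Prxl2b, a prostaglandin F synthase, and Akr1b3, an aldose reductase with that activity, were also higher (1.31 ± 0.31 and 0.58 ± 0.15), and Akr1b8 was lower (-1.22 ± 0.31). Akr1b3 was the gene of this list called for HI in KO (0.55 ± 0.15, adjusted p = 0.0404), and 0 were called for HI in WT, where 1 had an unadjusted p under 0.05. Median log2 fold changes were 0.16 for HI in WT, 0.28 for HI in KO and 0.31 for KO against WT after HI.

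Among the 8 other prostanoid receptors none was called for HI in either genotype by edgeR, with 2 at an unadjusted p under 0.05 in WT and 1 in KO. KO against WT after HI gave 2 calls of 8, beside 12.4% of all genes, both lower: the prostacyclin receptor Ptgir (7.44 ± 1.63 CPM in WT HI, 3.18 ± 0.59 in KO HI, log2 fold change -1.22 ± 0.33, adjusted p = 0.0305) and the EP1 receptor Ptger1 (-1.05 ± 0.27, adjusted p = 0.0254). The median of the 8 was -0.77. Of 8 other genes for transport and breakdown, Abcc4, which exports prostaglandins, was the one called in that comparison, 12.5% of the list beside 12.4% of all genes (146 ± 12.1 CPM in WT HI, 85.7 ± 19.0 in KO HI, -0.77 ± 0.20, adjusted p = 0.0282). None of the 8 was called for HI in either genotype, with 2 at an unadjusted p under 0.05 in WT and 1 in KO.

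The lipoxygenase branch, which makes leukotrienes from the same arachidonic acid, had 11 tested genes. In KO against WT after HI, 4 (36.4%) were called higher and 0 called lower. Over all genes 12.4% were called, 5.96% of them higher and 6.46% lower as shares of all genes. Of the 11 fitted values 7 were positive. The 4 called were Alox5 (1.60 ± 0.33, adjusted p = 0.0113), its activating protein Alox5ap (1.42 ± 0.26, adjusted p = 0.00739), the leukotriene C4 synthase Ltc4s (1.85 ± 0.32, adjusted p = 0.00596) and the receptor Cysltr1 (1.10 ± 0.26, adjusted p = 0.0195). These are genes of myeloid cells, and the microglia markers were higher in the same libraries. The part of cell composition in these 4 differences was not tested. After HI in KO, Dpep2, which processes leukotrienes, rose (2.15 ± 0.44, adjusted p = 0.0135) and the receptor Cysltr2 fell (-1.52 ± 0.33, adjusted p = 0.0175). They were 2 of the 11 genes (18.2%), beside 7.01% of all genes called. Dpep2 was near the floor, with 3 to 11 counts per library in KO sham and 22 to 36 in KO HI. HI in WT gave -1.41 ± 0.35 for Cysltr2 (adjusted p = 0.0578) and 1.76 ± 0.49 for Dpep2 (adjusted p = 0.0897), neither past the threshold.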

How the data were processed

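RNA of 15 libraries was sequenced. The deposited table holds expected counts (estimated by the authors per gene, not normalized). The header names no unit, which was inferred because 3.12% to 3.92% of a library's values were not whole. RSEM 1.3.1, HISAT2 2.1.0, Bowtie2 2.4.4, Bowtie and DESeq2 1.4.5 with build mm39 are listed, per the submitters' processing notes, with roles not given in the sources used here. Identifiers were matched to symbols with RefSeq (17874 of 17892 lines). Total counts ran from 15436376 to 18118697 per library.

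Counts were rounded, and genes passing filterByExpr were tested in 1 fit of 4 group means over all libraries with edgeR 4.0.16 (TMM, quasi-likelihood F test) in R 4.3.3. Calls had a Benjamini-Hochberg adjusted p under 0.05 over all 14853 genes. Standard errors come from the F statistic. Intervals use a normal multiplier of them and are narrower than exact 95% intervals for so few libraries. The biological coefficient of variation was 38.6%. The scripts were tested on simulated data. Alternatives used limma 3.58.1 (voom), DESeq2 1.42.0, RLE scaling, no filter, other samples and a replicate block. Genes per kilobase used exon unions of GENCODE M21. Related genes were named if called, with others from the smallest p, and 3 genes most like each of the 9 were ranked by Pearson r. The 9 genes, the lists and the markers were chosen with earlier results of these data known.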

Additional observations from a re-analysis of the deposited data

Results flagged for a closer look

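In 27 sets of 4 libraries (9 genes in KO sham, WT HI and KO HI), 3 held a library set apart from the rest by the gap to its nearest neighbour; chance gives such a gap in about 1 of 20 sets. WT HI 2 was apart for Ptgs1, at 80.3 CPM against 37.3 to 40.8 in the other WT HI libraries, and for Hpgds, at 84.3 against 29.9 to 36.4. In the same library the microglia markers had a mean of 7.61 on the log2(CPM + 1) scale, against 6.18 to 6.31 in the others, and their part was not tested. KO HI 4 was apart for Ptgds, at 2099 CPM against 337 to 569. Its fibroblast and meningeal markers had a mean of 8.10 against 6.0 to 6.86 in the other KO HI libraries, and their part was not tested. Without KO HI 4 the genotype value of Ptgds after HI was -1.89 ± 0.87 (edgeR adjusted p = 0.135) in place of -0.89 ± 0.85.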

How the results depend on the processing

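For the 9 genes, 877 of the recomputed values kept their direction and their side of the threshold, 49 fell short of it, 14 newly passed it and 41 changed sign. Ptgs2 kept its HI call in each genotype and its genotype call after HI in 21 of 22 alternatives each. Calls over all genes were 271 for HI in WT (DESeq2 782, WT groups alone 2443, without the 5 libraries highest in neuron markers 750, 48 to 554 with 1 library left out). For HI in KO they were 1041 (DESeq2 1932, KO groups alone 16, without those 5 libraries 2458, 355 to 1927 with 1 left out). For KO against WT they were 2 in sham (DESeq2 32, voom 0, sham groups alone 1, without the 5 libraries 5, and 1 to 2 with 1 left out) and 1844 after HI (DESeq2 3399, without the 5 libraries 3440, 481 to 3605 with 1 left out). The difference of responses had 0 (DESeq2 22, 0 to 2 with 1 left out). Of the 9 genes, calls for HI in WT were 2 (no filter 1, DESeq2 4, WT groups alone 5, 1 to 3 with 1 library left out), for HI in KO 3 (KO groups alone 0, 1 to 4 with 1 left out), for KO against WT in sham 0 (DESeq2 1, without the 5 libraries 1), and after HI 6 (3 to 6 with 1 left out, 3 without WT HI 1). The causes were not tested, and some of these fits also held fewer libraries.

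With the number in the library names as a replicate block, calls over all genes were 16, 73, 1 and 21 in the 4 pairwise comparisons, and of the 9 genes 0 for HI in WT, 1 for HI in KO and 0 after HI. Adjusted p for the 6 genes called after HI was 0.0543 to 0.105 with the block. Deviations of same-numbered libraries had correlations from -0.776 to 0.783 over 15 pairs, 10 of them above 0.1. The 69 other pairs of libraries from different groups ran from -0.759 to 0.888. As not every same-numbered pair was above 0.1, the main fit did not pair the samples. This rule cannot show that the samples were unpaired.

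The values that changed sign belong to 10 results, and none was called before or after the change. With limma-voom, Hpgds for HI in WT was -0.11, Ptgds for HI in KO 0.56, Slco2a1 for KO against WT in sham -0.12 and the difference of responses of Ptgs2 -0.048. With the replicate block, Ptgds for HI in KO was 1.41, its difference of responses 1.12 and Slco2a1 in sham -0.53. Without the 5 libraries, HI in KO gave -0.071 for Ptges and -0.26 for Slco2a1, and KO against WT in sham gave 1.01 for Ptgds, 0.11 for Ptgis and 0.16 for Ptger4. With 1 library left out, Hpgds for HI in WT ran from -0.48 to 0.17. HI in KO ran from -1.04 to 1.11 for Ptgds, -0.14 to 0.26 for Ptges and -0.19 to 0.49 for Slco2a1. KO against WT in sham ran from -1.16 to 0.36 for Ptgds, -0.26 to 0.085 for Ptgis, -0.48 to 0.19 for Ptger4 and -0.35 to 0.32 for Slco2a1. The difference of responses ran from -0.29 to 0.24 for Ptgs2 and -1.86 to 0.27 for Ptgds. For these the cause was not tested. Depth limits Ptger4 most, with 29 to 238 counts.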
